A study of Mus musculus with 19 samples.

Results

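The genes described here build and run motile cilia, the beating hair-like structures on ciliated cells of the airway epithelium. They were chosen as a list of 35 mouse genes by function, and their probes were found by matching the RefSeq accession of every array probe to a member symbol. This gave 42 probes for 31 of the 35 genes, on an array with probes for 20660 gene symbols. Dnah3, Dnah12, Armc4 and Ccdc40 were not analysed here, as no probe matched them by accession. A probe was tested when its lung signal was well above background in at least 4 mice of a dose group, and 37 probes of 29 genes met this, among 30999 probes tested in all.

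The lungs came from 18 adult male MutaMouse animals of about 12 weeks, a transgenic strain that carries a reporter for mutation assays. All mice were gavaged on 28 days in a row with olive oil, alone or with a mixture of 8 polycyclic aromatic hydrocarbons, and were killed 72 h after the last gavage. The groups were D0 (olive oil alone, 5 mice, animal numbers 1 to 5), D1 (15 mg benzo[a]pyrene (BaP) equivalents per kg body weight per day, 4 mice, 21, 22, 24 and 25), D2 (30 mg, 5 mice, 23, 26, 28, 29 and 30) and D3 (60 mg, 4 mice, 31, 32, 34 and 35). RNA was taken from randomly chosen pieces of lung, so each sample held airway and alveolar tissue together. Values are log2 ratios of lung RNA (Cy5, red) over a common reference RNA from 11 mouse cell lines (Cy3, green), and values per mouse follow the order of the animal numbers above.

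Motile cilia contain an axoneme of microtubule doublets around a central pair. Dynein arms on the doublets drive the beat, radial spokes and the central pair regulate it, and ruler proteins set the spacing of these parts. In the airway, multiciliated cells use the beat to clear mucus and particles. The transcription factor FOXJ1 and the regulatory factor X (RFX) family switch on the genes of the motile axoneme, and RFX proteins bind a sequence called the X-box.

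Promoter sequences are shown because these genes varied together between mice, as described further on. Of the 35 members, 28 had a promoter in the RefSeq promoter table (GRCm38.p6), and the 250 bases before each start were searched on both strands. An X-box, a pair of inverted 6-base sites with a spacer of 0 to 3 bases, was present in 2 of these 28 genes (7.14%), Dynlrb2 and Spag16, and in 0.962% of all 27025 genes with a promoter. The stretches that hold it are on the plus strand, at chr8:116504934-116505006 for Dynlrb2 and chr1:69826837-69826910 for Spag16, and the X-box is in capitals. It ended 39 bases before the start of Dynlrb2 and 90 bases before that of Spag16.
Dynlrb2: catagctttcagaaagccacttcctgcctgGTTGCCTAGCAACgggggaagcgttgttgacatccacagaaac
Spag16: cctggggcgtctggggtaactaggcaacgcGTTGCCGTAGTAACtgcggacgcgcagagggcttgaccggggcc

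The single site GTTGCC, which overlaps the X-box, was in 12 of the 28 promoters (42.9%) against 11.8% of all genes. These 12 were Ccdc113, Cdhr3, Dnah7a, Dynlrb2, Hydin, Mlf1, Rfx2, Sntn, Spag16, Spag6, Tekt1 and Tekt2. Its variant GTTACC, which the X-box pattern admits but neither X-box shown holds, was in 4 of 28 (14.3%) against 6.89%, and the forkhead motif TGTTTAC was in 3 of 28 (10.7%; Ak7, Mlf1 and Sntn) against 3.54%. These counts describe the letters in this window and were not tested.

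Ciliated cell transcripts were measured in the lungs of every group. The lung signal was well above background in all 18 mice for 27 of the 29 tested genes, with Spag16 at 17 mice and Dnah1 at 14 mice. The log2 ratio over the reference was above 0 in all 18 mice for 26 of the 29, the others being Dnah1, Rfx2 and Rfx3. The reference channel was well above background in all mice for 12 of the 29 and in no mouse for 6, namely Dnah5, Spag16, Spag17, Ak7, Cdhr3 and Sntn, so the ratio was a measured fold over the reference in every mouse for those 12 alone. Dnah9, an outer dynein arm heavy chain, and Spag6, a central pair protein, had probes that were not well above background in enough mice and were not tested. The array probe that older annotation calls Spag6 belongs to Spag6l in the current table. Spag6l, no member of the list, was well above background in 18 of 18 mice and differed from D0 by -0.09, 0.11 and 0.08 on the log2 scale at D1, D2 and D3 (limma adjusted p = 0.848, 0.836 and 0.837).

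Whether oral exposure to the mixture altered the transcripts of motile cilia was asked by comparing each dose with D0. No member was called at any dose, a call being a limma adjusted p of at most 0.05 with a change of at least 1.5-fold. The counts were 0 of 37 probes at D1, where 1.06% of all tested probes were called, 0 of 37 at D2 (0.626% of all) and 0 of 37 at D3 (2.43% of all). At an unadjusted limma p under 0.05 the count was also 0 of 37 at each dose, against 19.8%, 14.7% and 26.2% of all tested probes. These fits left slide out of the model. With slide as a block Tppp3 at D3 had a limma adjusted p of 0.0287, so this count of 0 does not hold there. A linear trend over dose called 0 of 37 (1.53% of all), D2 against D1 called 0 of 37 (0% of all) and D3 against D2 called 0 of 37 (0.106% of all). Between neighbouring doses 0 of 37 also had an unadjusted limma p under 0.05, against 9.83% of all tested probes for D2 against D1 and 11.7% for D3 against D2. At an unadjusted p under 0.05 the trend gave 1 member, Tppp3 (22.1% of all tested probes). In no member were the mice of a dose group all above or all below the D0 mice, whereas 8.93%, 4.11% and 14.6% of all tested probes had no such overlap at D1, D2 and D3. Members spread more within groups, with a median residual SD of 0.31 against 0.15 over all tested probes, which makes calls and separation less likely. They also varied together, with D0 mouse 4 the highest of D0 for 29 of 29 and mouse 1 the lowest for 23. The counts of 0 thus do not show that these genes were spared.

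Taking each gene by its brightest tested probe, the median log2 change over the 29 members was -0.04 at D1, -0.01 at D2 and -0.09 at D3, and those at D1 and D2 turned to 0.09 and 0.07 with median centring of the arrays in place of loess. The medians over all tested probes were 0.01, 0 and 0. In the main fit, with loess, changes lay between -0.27 and 0.22 at D1, between -0.29 and 0.21 at D2 and between -0.39 and 0.13 at D3. They spread wider with the scanner software's processed signals, as given in the next paragraph. Of the 29, 19 were below 0 at D1 (65.5%), 15 at D2 (51.7%) and 23 at D3 (79.3%), against 48.3%, 51.1% and 50.5% of all tested probes. Without D0 mouse 4 the medians turned to 0.07, 0.11 and 0.04 at D1, D2 and D3, and without D0 mouse 1 they were -0.19, -0.14 and -0.21.

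The intervals set the size of change that these mice leave possible in the main fit, with loess and no background subtraction. The median standard error (SE) of a member's log2 change was 0.18 at D1, 0.17 at D2 and 0.18 at D3. Over all tested probes it was 0.10 at each dose. The 95% interval lay inside a 2-fold change either way for 29 of 29 members at each dose, and inside a 1.5-fold change for 22 at D1, 25 at D2 and 21 at D3. The widest bounds on the log2 scale were -0.75 and 0.66 at D1, -0.66 and 0.88 at D2, and -0.91 and 0.63 at D3.

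**Figure D1:**
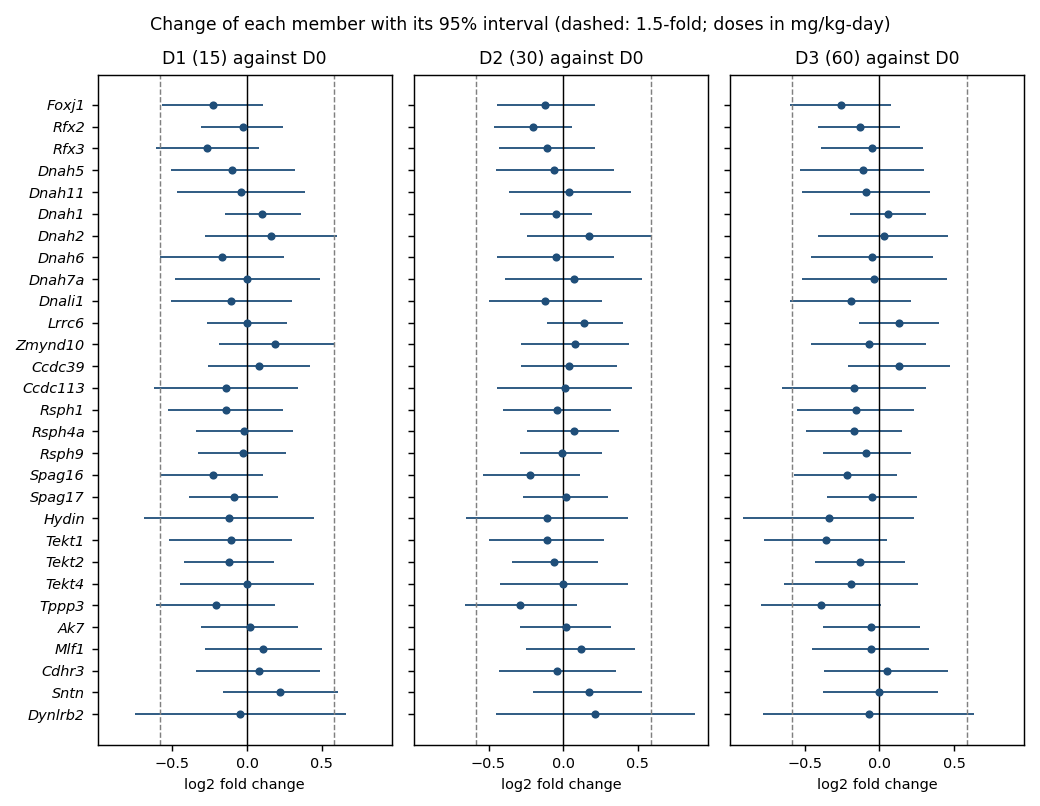
Log2 fold change (x axis) of each of the 29 tested members (y axis, ordered by role) at D1, D2 and D3 against D0, with its 95% interval from limma as a bar and 1.5-fold as dashed lines. All intervals cross 0, and Dynlrb2, Hydin and Tppp3 are among those whose bars run past 1.5-fold at D3.

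Foxj1, the transcription factor that commits cells to motile cilia, differed from D0 by -0.23, -0.12 and -0.26 at D1, D2 and D3. Its log2 ratio was 3.17, 3.85, 3.21, 4.13 and 3.43 in the D0 mice. It was 3.35, 3.29, 3.54 and 3.14 in D1 and 3.28, 3.46, 3.35, 3.29 and 3.83 in D2. The D3 mice read 3.24, 3.37, 3.39 and 3.20. D0 mice 2 and 4 were the highest of all 18, and the other 3 D0 mice lay within the range of the dosed mice. The D0 mean was 3.56 ± 0.42 (SD, n = 5) and the D3 mean 3.30 ± 0.09 (SD, n = 4), a difference with a 95% interval of -0.60 to 0.08 (limma adjusted p = 0.337). Rfx3, which is measured by 3 probes, was -0.27 at D1, the member with the smallest adjusted p there (0.389), but its probes ran from -0.27 to 0.12 and disagreed in sign at each dose. Rfx2 was -0.03, -0.20 and -0.13, with the smallest adjusted p among members at D2 (0.491).

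The dynein arm heavy chains, the motors of the beat, differed from D0 by less than the spread between mice. Dnah5 of the outer arm read 3.27, 4.13, 4.05, 4.56 and 3.88 in D0. The D3 mice read 4.11, 3.56, 4.16 and 3.64. These D3 values all lay inside the D0 range, and the difference was -0.11 (SE 0.20, limma adjusted p = 0.769). Dnah11, the other tested outer arm heavy chain, differed by -0.04, 0.04 and -0.09 at the 3 doses. The inner arm chains Dnah1, Dnah2, Dnah6, Dnah7a and Dnali1 ran from -0.17 to 0.16 at D1, from -0.12 to 0.17 at D2 and from -0.19 to 0.06 at D3. With the scanner software's processed signals, Dnah1 was -0.66 and Dnah2 0.80 at D2 (limma adjusted p = 0.655 and 0.308). The 3 probes of Dnah7a disagreed in sign at D1 (-0.19 to 0) and D2 (-0.07 to 0.07), and all were below 0 at D3.

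Genes that assemble the arms or set their spacing did not pass the test at any dose. Zmynd10, needed to build dynein arms in the cytoplasm, read 2.38, 3.05, 2.94, 3.45 and 2.45 in D0. The D1 mice read 2.93, 3.17, 3.27 and 2.81, inside the D0 range, and the difference of 0.19 at D1 became 0.08 at D2 and -0.07 at D3. Lrrc6, with a like role, differed by 0, 0.14 and 0.13. The ruler protein gene Ccdc39 differed by 0.08, 0.04 and 0.13, and the coiled-coil gene Ccdc113 by -0.14, 0.01 and -0.17 (at D3 the lower of the limma adjusted p-values was 0.669).

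Radial spoke, central pair and tektin genes were each below 0 at D3 without passing the test. The spoke head genes Rsph1, Rsph4a and Rsph9 were -0.16, -0.17 and -0.09 at D3. The central pair genes Spag16, Spag17 and Hydin were -0.22, -0.05 and -0.34, and the genes Tekt1, Tekt2 and Tekt4 for tektins, filaments of the doublet wall, were -0.36, -0.13 and -0.19. For all 9 the smallest limma adjusted p at D3 was 0.257, that of Tekt1. Tekt1 read 3.95, 4.38, 4.66, 5.10 and 4.44 in D0. The D3 mice read 4.00, 3.96, 4.46 and 4.17, all inside the D0 range. Hydin read 1.47, 2.19, 2.44, 3.10 and 2.18 in D0 and 1.67, 1.63, 2.43 and 2.03 in D3. The spread within groups was wide for Hydin, with D0 spanning 1.63 log2 units, and the SE of its D3 difference was 0.27.

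The other ciliated cell genes included the member with the largest difference from D0 in the main fit. Tppp3, which encodes a tubulin polymerization promoting protein, read 5.18, 5.17, 5.81, 5.90 and 5.51 in D0. It was 5.14, 4.97, 5.79 and 5.30 in D1, 5.46, 4.84, 5.07, 5.20 and 5.56 in D2, and 4.85, 5.03, 5.53 and 5.08 in D3. In D3, 3 of 4 mice lay below every D0 mouse and mouse 34 lay among them. The changes were -0.21, -0.29 and -0.39, with an SE of 0.19, a 95% interval of -0.79 to 0.01 and a limma adjusted p of 0.199 at D3. With slide as a block the D3 adjusted p was 0.0287 at a log2 change of -0.38, and with the red channel alone it was 0.0212 at -0.52, both short of 1.5-fold.

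The 5 remaining genes of this kind had D3 differences close to 0. Ak7, an adenylate kinase of cilia, was -0.06, Mlf1 was -0.06, the cadherin-related Cdhr3 was 0.05, Sntn, whose protein sits at the ciliary tip, was 0, and the dynein light chain gene Dynlrb2 was -0.07. Sntn at D1 had the largest positive difference of the list at that dose (0.22), and Dynlrb2 at D2 that at D2 (0.21). Dynlrb2 read 4.94, 3.89, 5.74, 6.14 and 5.40 in D0. D0 mouse 2 was the lowest of all 18 mice and D0 mouse 4 the highest, and the residual SD of this gene (0.58) was the largest among members.

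**Figure D2:**
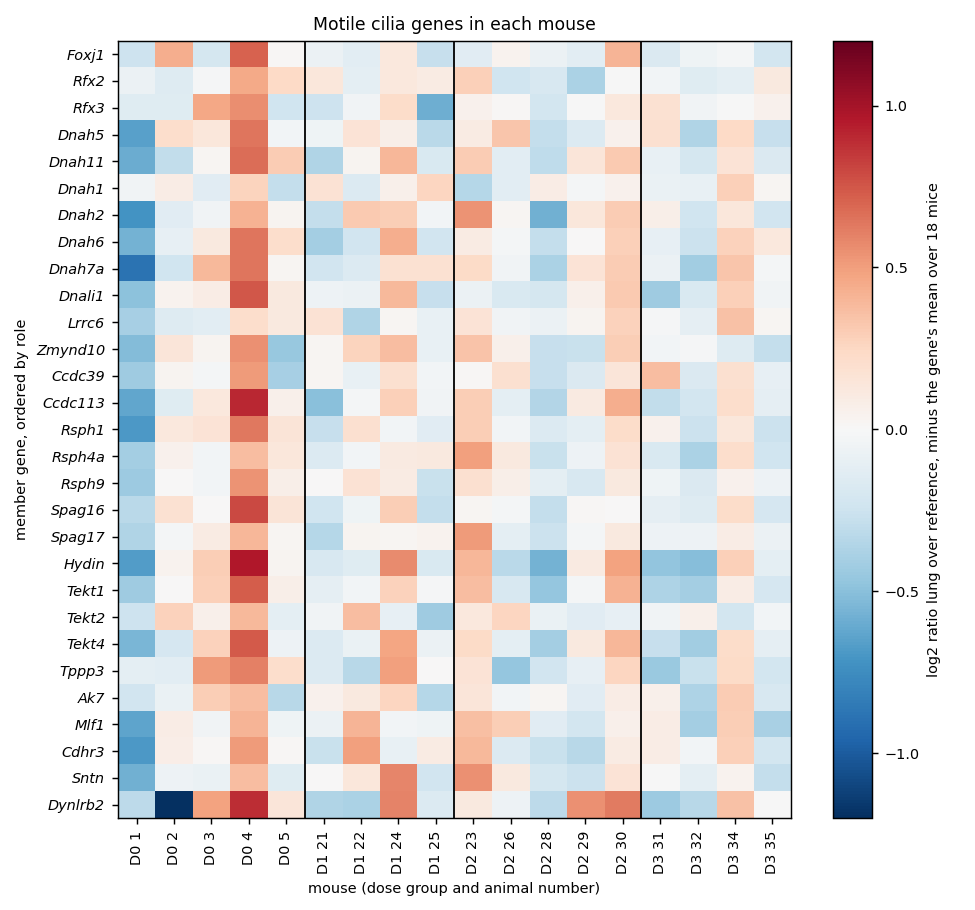
Log2 ratio of lung over reference for each of the 29 tested members (rows, ordered by role) in each of 18 mice (columns, by dose group and animal number), with the gene's mean over the mice removed. The column of D0 mouse 1 is low for most genes, that of D0 mouse 4 is high for 29 of 29, and no dose group stands apart.

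The members differed more between mice of a group than between groups, and they did so together. The residual SD within groups had a median of 0.31 on the log2 scale over the 29 members, from 0.19 for Dnah1 to 0.58 for Dynlrb2, against 0.15 over all tested probes. The mean of the 29 members, with each gene's mean over the mice removed, was -0.45, -0.05, 0.11, 0.57 and 0 in the D0 mice. It was -0.14, 0.01, 0.23 and -0.12 in D1, 0.21, -0.03, -0.25, -0.04 and 0.22 in D2, and -0.09, -0.22, 0.16 and -0.13 in D3. The lowest and the highest mouse of the study were thus both controls, and the D0 range held every dosed mouse. Group means were 0.04 ± 0.37 (SD, n = 5) for D0, -0.01 ± 0.17 (n = 4) for D1, 0.02 ± 0.20 (n = 5) for D2 and -0.07 ± 0.16 (n = 4) for D3.

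D0 mouse 1 had the lowest value of all 18 mice for 20 of the 29 members, and D0 mouse 4 the highest for 22. Within D0, mouse 4 was the highest for 29 of 29 genes and mouse 1 the lowest for 23. The D0 range of a gene spanned 0.56 to 2.25 log2 units, with a median of 1.07, and it held every dosed mouse for 15 of the 29. D0 had the largest SD of the 4 groups in 23 of the 29. The step from D0 mouse 1 to D0 mouse 4 was 3.09-fold for Hydin, 2.90-fold for Dnah7a and 2.89-fold for Ccdc113, but 1.24-fold for Dnah1 and 1.44-fold for Rfx2. The mean log2 red signal was 6.91 for Dnah1, 7.61 for Rfx2, 7.67 for Dnah7a and 9.14 for Hydin. Dnah1 lay near background and none was subtracted, so its fold may be too small. In these bulk samples, fewer ciliated cells and less RNA per ciliated cell cannot be told apart.

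**Figure D3:**
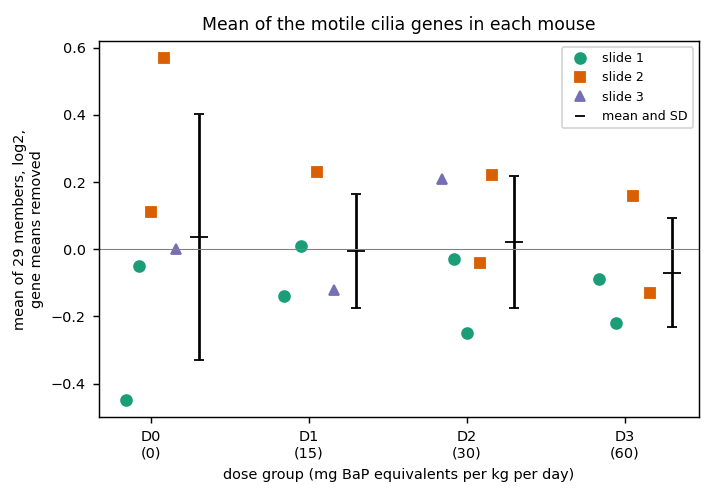
Mean of the 29 members in each mouse (y axis, log2, gene means removed) by dose group (x axis, mg BaP equivalents per kg per day), with the slide as colour and shape and the group mean and SD as a bar beside the points. D0 spans -0.45 to 0.57 and holds every dosed mouse, and 5 of the 7 mice of slide 2 lie above every mouse of slide 1.

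Across the 18 mice the Pearson r between pairs of members had a median of 0.60 over 406 pairs, and it was above 0 in 396. With the means of dose groups and slides removed the median was 0.69, with 392 above 0. Each member was also set against the mean of the other members. That r was highest, at 0.94, for Ccdc113, Hydin and Tekt4, had a median of 0.80, and was lowest for Dnah1 (0.12), Tekt2 (0.39) and Rfx2 (0.51). Members share the array, the depth of signal and the tissue piece of each mouse, so these values describe the 18 samples and carry no test. The 3 genes at 0.94 belong to the coiled-coil, central pair and tektin groups.

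Slide moved with the members. Each of the 3 slides held arrays of all 4 groups, and D3 mouse 35, with an array on slide 2 and an array on slide 3, was counted with slide 2. The mean of the members was -0.15 ± 0.15 (SD, n = 8) on slide 1, 0.16 ± 0.23 (n = 7) on slide 2 and 0.03 ± 0.17 (n = 3) on slide 3. With dose in the model, slide 2 was above slide 1 for 28 of 29 members, by a median of 0.23 log2 units. The limma adjusted p for slide was at most 0.05 for 10 of 29 members (34.5%), against 15.8% of all tested probes, and those 10 were higher on slide 2. They included Dynlrb2 (0.95 higher, adjusted p = 0.00237), Hydin (0.74), Tekt4 (0.59), Dnah7a (0.59) and Tppp3 (0.53), but not Foxj1 (0.12, adjusted p = 0.437). With slide as a block, 0 of the members were called at any dose. An array's column on the slide tracked its dose group, and effects of column and of dose cannot be told apart. The part of slide or of the sampled tissue piece in the shared variation was not tested.

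Since FOXJ1 drives the programme, the log2 ratio of Foxj1 was set against that of each other member across 18 mice. Including Scgb1a1, Sftpc and Ager, marker genes of other lung epithelial cells, 31 relations were computed, with p-values from 100000 permutations. Pearson r was above 0 for 28 of 28 members, from 0.21 to 0.77 with a median of 0.49, and the adjusted p was at most 0.05 for 11. Such relations were not particular to Foxj1, as all pairs of members had a median r of 0.60, with 396 of 406 above 0. With the mean of the other members Foxj1 had an r of 0.63, below the median of 0.80 over the members. Spag16 was highest (r = 0.77, permutation p = 0.00061, adjusted p = 0.00945, rho = 0.67), followed by Dnali1 (r = 0.75, permutation p = 0.00042, adjusted p = 0.00945, rho = 0.64) and Rsph9 (r = 0.69, permutation p = 0.00166, adjusted p = 0.0172, rho = 0.61). The other 8 were Ccdc113, Dnah5, Hydin, Rsph1, Tekt1, Zmynd10, Dnah6 and Tekt4, with r from 0.55 to 0.63 and adjusted permutation p from 0.0259 to 0.0497.

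These relations rested in part on the pair of mice with the highest Foxj1. Spearman's rho was between 0.02 and 0.67 with a median of 0.40, and no member had an adjusted permutation p of at most 0.05 (smallest 0.0784). Without D0 mice 4 and 2, r ran from -0.01 to 0.65 with a median of 0.38, and 0 of 28 had an adjusted p of at most 0.05 (smallest 0.138, permutation test). With dose group means removed r was 0.20 to 0.75 with 13 at an adjusted p of at most 0.05, and with slide means removed it was 0.05 to 0.86 with 14. Among the 8 mice of slide 1 the median r was 0.34 and 0 of 28 passed an exact permutation test. Among the 7 mice of slide 2 the median r was 0.81 and 14 of 28 passed it. Dynlrb2 had the lowest r (0.21), and it read -0.79 on slide 1 and 0.79 on slide 2, where D0 mouse 2, high for Foxj1 and low for Dynlrb2, was on slide 1.

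For the markers of other cells, r with Foxj1 was 0.51 for Scgb1a1 (club cells, rho = 0.34, permutation p = 0.0293, adjusted p = 0.0649), 0.46 for Ager (alveolar type 1 cells, rho = 0.31, permutation p = 0.0548, adjusted p = 0.0944) and 0.44 for Sftpc (alveolar type 2 cells, rho = 0.35, permutation p = 0.0659, adjusted p = 0.106). These lay near the median of the members, and 0 of the 3 passed the adjusted threshold.

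**Figure D4:**
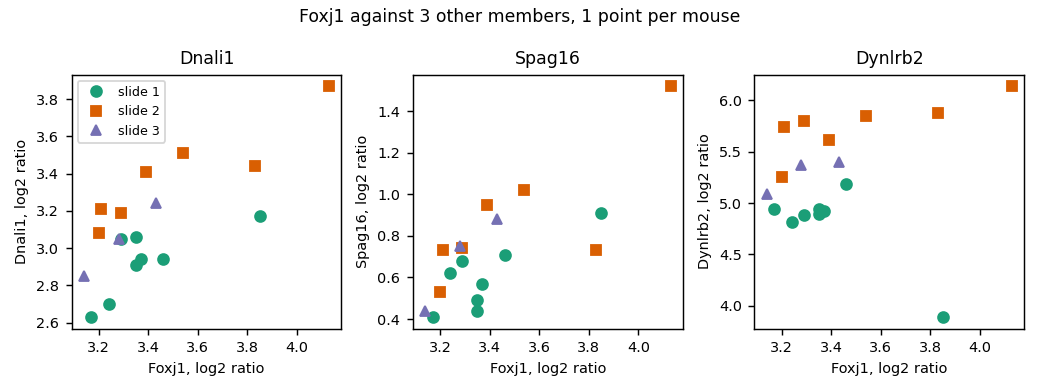
Log2 ratio of Foxj1 (x axis) against that of Dnali1, Spag16 and Dynlrb2 (y axes), 1 point per mouse with the slide as colour and shape. Dnali1 and Spag16 rise with Foxj1 and the mouse at upper right is D0 mouse 4, while for Dynlrb2 D0 mouse 2 lies alone at 3.89.

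A wider list of motile cilia genes followed the members. Of 79 such genes, 68 were tested, 0 were called at any dose, and their median log2 change was 0 at D1, 0.01 at D2 and -0.09 at D3. The mean of this list per mouse had an r of 0.99 with the mean of the members across 18 mice. Above an r of 0.8 with the members' mean were 32 of the 68 (47.1%), 15 of 29 members with the mean of the others (51.7%) and 194 of all 14735 genes tested (1.32%). Outside all lists, the 10 genes most like the members' mean were 1700024G13Rik (r = 0.955), Tmem107 (0.95), Elof1 (0.949), Ccdc78 (0.933), Ak8 (0.93), Ttll6 (0.929), Spef1l (0.928), 1700013F07Rik (0.927), Bspry (0.927) and 2310034G01Rik (0.926), each over 18 mice. None of them differed from D0 by more than 0.26 log2 units at any dose.

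**Figure D5:**
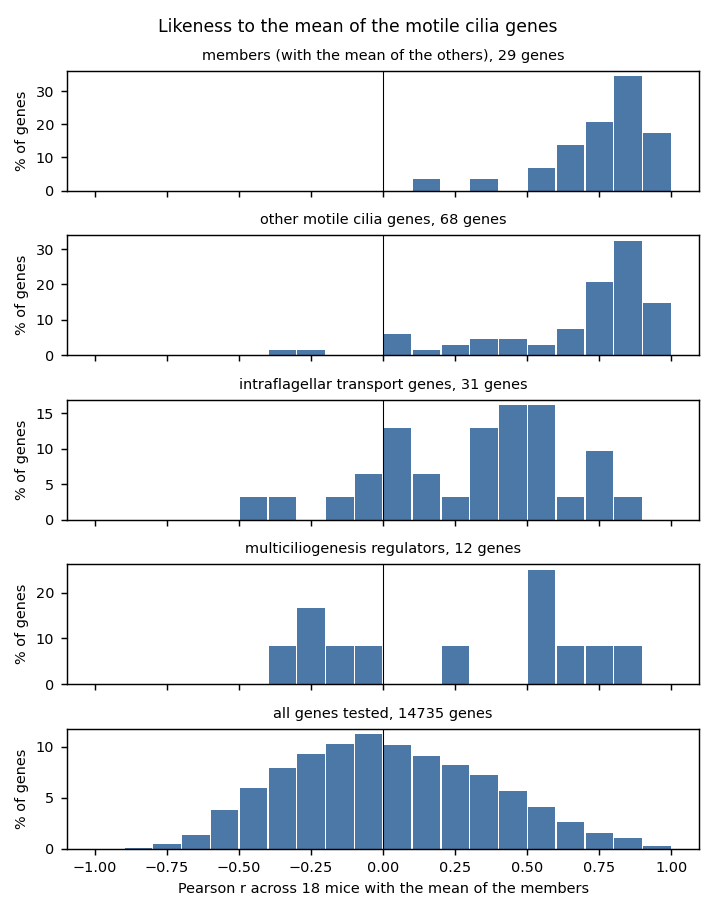
Share of genes (y axis, percent) by Pearson r across 18 mice with the mean of the 29 members (x axis), for the members, other motile cilia genes, intraflagellar transport genes, regulators of multiciliogenesis and all 14735 genes tested. Members and other motile cilia genes pile up near 0.8 and all genes around 0, while transport genes spread from -0.40 to 0.82 with a median of 0.34.

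Genes on the list of multiciliogenesis regulators did not all follow the members. Of 12 tested, 0 were called, and their r with the members' mean had a median of 0.40 and was below 0 for 5. Deup1, which builds the deuterosomes that multiply centrioles, had the highest r (0.85), followed by Myb (0.79) and Trp73 (0.70). Those below 0 were Cep63 (-0.34), Cep152 (-0.27), Mcidas (-0.21), a coregulator at the top of the programme, E2f5 (-0.19) and Cby1 (-0.08). The median log2 difference from D0 over the 12 was 0.02 at D1, 0.08 at D2 and 0.09 at D3. Single genes at D3 ran from -0.34 for Mcidas to 0.31 for Cby1 (limma adjusted p = 0.0768). Mcidas had the smallest adjusted p at D3, with a log2 change of -0.34 (limma adjusted p = 0.0389) that fell short of 1.5-fold. Intraflagellar transport genes, which serve motile and sensory cilia alike, had a median r of 0.34 by gene over the 31 tested, with 1 above 0.8, and 0 calls. The mean of each list per mouse had an r with the members' mean of 0.76 for the regulators and 0.73 for the transport genes. The median log2 difference over the 31 was 0.08 at D1, 0.04 at D2 and 0.08 at D3.

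Markers of other cells of the lung samples followed the cilia genes to differing degrees. The mean of each list per mouse had an r with the members' mean of 0.81 for neuroendocrine markers (5 genes), 0.58 for airway smooth muscle (5), 0.54 for alveolar type 2 (7), 0.50 for general epithelium (7), 0.41 for alveolar type 1 (6), 0.38 for club and secretory cells (12), 0.10 for airway cartilage (3 of 8 tested), 0.10 for cardiac muscle (7) and -0.14 for basal cells (6). By gene, r was 0.73 for the club cell secretoglobin Scgb1a1, 0.61 for Ager, 0.59 for Sftpc, 0.12 for Epcam and 0.09 for Krt5. The brightest genes of the club cell list ran from 0.21 for Scgb3a1 to 0.76 for Cyp2f2. Members' mean spanned -0.45 to 0.57 over the mice, the club cell list -0.73 to 0.99 and the cardiac list -2.17 to 1.73. Calls in these lists were Krt15 of the basal list and Cav1 of the alveolar type 1 list, both at D3. Krt15 was 0.89 higher (limma adjusted p = 0.0251), the highest of a list that ran from -0.38 to 0.89. In the same list Trp63 was -0.38 (limma adjusted p = 0.00964), short of 1.5-fold, and Krt5 was -0.22. Cav1 was 0.64 lower (limma adjusted p = 0.00209), in a list that ran from -0.64 to 0.24. In these bulk samples the fall of Cav1 was not traced to a cell type. At D3 the median log2 change was -0.36 for club and secretory markers with 0 of 12 called, -0.32 for alveolar type 2 markers with 0 of 7 called and -0.28 for alveolar type 1 markers with 1 of 6 called. It was -0.30 for airway smooth muscle, -0.25 for cardiac muscle, -0.13 for basal cells, -0.09 for general epithelium, 0.01 for neuroendocrine cells and 0.11 for airway cartilage, beside -0.09 for the motile cilia members. The part of these cell types in the members' values was not tested.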

How the data were processed

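Two-colour Agilent arrays were run on lung RNA of 18 mice (19 arrays; D3 mouse 35 had 2, which correlated at r = 0.978 and were averaged). As deposited, the scanner output gives spot intensity values (median pixels), and a series table gives log2 ratios that the authors had normalized by lowess without background subtraction. Per the file headers the software was Feature Extraction 11.0.1.1 on a G2505C scanner, and the array design used mm9; the study's methods name other releases. Here, median signals were normalized within arrays by loess (span 0.3), leaving out control spots (3671 of 62976) and outlier spots (171 to 323 per array), and spots of a probe were averaged. Ratios correlated with the deposited table at 0.995 to 0.998. Dyes were not swapped, so ratios are open to dye bias. Between 54.5% and 64.7% of spots per array were well above background in red and 47.0% to 61.6% in green, none was saturated, and the number of mice limits the precision. Probes with no spot left in some mice (80) were dropped.

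Symbols came from RefSeq accessions without versions, through a table of GRCm38.p6 (21465 of 22765 identifiers matched). Coordinates of that build are given for promoters only. Sample titles gave the groups. All 4 entered a limma model (version 3.58.1, R version 4.3.3), with Benjamini-Hochberg adjustment over all 30999 probes, in place of MAANOVA, which was not installed. The test was checked on simulated data. Members, all of which are named by their brightest tested probe, and the other lists were chosen with earlier results of these data known. From the other lists the text names fixed markers, some of the brightest genes, called genes and genes chosen after their values were seen (Deup1, Myb, Trp73, Cep63, Cep152, E2f5 and Cby1). Permutation tests used Python 3.11.15 and NumPy 2.4.6, two-sided. The array labelled D2 Mouse 23 has a number among those of D1, and the methods give group sizes with 1 more mouse in D1; it was kept as labelled. Alternatives were other signals, normalizations, filters, probes per gene, slide as a block, each mouse left out and the doubtful label.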

Additional observations from a re-analysis of the deposited data

Results flagged for a closer look

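Each of the 29 tested members, and the mean of them, was looked at in each of the 4 dose groups, which gave 120 sets. In 7 of these sets, all of single members, 1 mouse lay far from the rest by Dixon's test at the 95% level, which chance alone gives in about 1 of 20 such sets. Hydin read 2.71 in D1 mouse 24, where the other D1 mice read 1.95 to 2.00, and Tekt4 read 3.66 in the same mouse against 3.02 to 3.11. Mlf1 read 1.65 in D1 mouse 22 against 1.17 to 1.21, and Rfx2 read 0.01 in that mouse against 0.22 to 0.26. Spag17 read 0.63 in D1 mouse 21 against 0.99 to 1.01, and 1.06 in D3 mouse 34 against 0.90 to 0.91. Spag16 read 0.44 in D2 mouse 28 against 0.71 to 0.75. All values are log2 ratios of lung over reference.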

How the results depend on the processing

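Under 32 alternative settings 0 members were called at any dose. Leaving out D2 mouse 23 is counted there both for its doubtful label and as a left-out mouse, with the same values. Of 2778 recomputed changes of single members, 238 changed sign, none from a value larger than 0.21 in size, and 2 had an adjusted p of at most 0.05, both Tppp3 at D3 and short of 1.5-fold. A change of sign of an uncalled value was not counted as a reversal. Changes of single members ran widest with the scanner software's processed signals, from -0.66 for Dnah1 to 0.80 for Dnah2, both at D2. Leaving out each mouse in turn moved the median of the members between -0.19 and 0.07 at D1, between -0.14 and 0.11 at D2 and between -0.21 and 0.04 at D3, with the ends set by D0 mice 1 and 4. Other settings gave -0.10 to 0.09, -0.06 to 0.07 and -0.16 to -0.06, and median centring in place of loess turned the D1 and D2 medians above 0. The D2 median was also above 0 with normexp correction (0.01) and without D2 mouse 28 (0.03), and the D1 median with D2 Mouse 23 counted in D1 (0.01). The number of members related to Foxj1 at an adjusted permutation p of at most 0.05, 11 of 28, became 0 with Spearman's rho (an alternative chosen after seeing the data), 0 without D0 mice 4 and 2, 0 in the mice of slide 1 alone, 13 with dose means removed, 14 with slide means removed and 14 in those of slide 2. The cause was not tested. Normexp correction was run on median signals, as the files used here hold no mean signals. No paired analysis was possible because the labels share no replicate number between groups, and slide, which held arrays of all groups, was the block that was run.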
